A study of Homo sapiens with 5 samples.

Results

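MAP1LC3A and 9 core genes of autophagy were followed in HEK 293T cells given the DNA methylation inhibitor 5-aza-2'-deoxycytidine (5-aza-CdR). The set was chosen by gene symbol, and MAP1LC3A was selected on its response in these same data, so its values here are a description. Of the 10 genes, 9 have an entry of their own among the 20220 RefSeq entries, and BECN1 does not. HEK 293T is a line of human embryonic kidney cells that carries the SV40 large T antigen, and 5-aza-CdR (decitabine) enters DNA in place of deoxycytidine, where it binds and depletes the enzymes that methylate cytosine. The treated group is 2 libraries from cells kept in 1 µM of the drug for 3 days. The recovery group is 1 library from cells given the same treatment and then grown without drug for 30 days. The control group is 2 libraries from cells that received no drug. No separate control aged for those 30 days is among the samples, so time in culture and earlier drug cannot be told apart in the recovery group.

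Autophagy encloses cytoplasm in a double membrane, the autophagosome, and delivers it to the lysosome for breakdown. The ULK1 kinase complex starts the process, a lipid kinase complex built around BECN1 marks the site, and a ubiquitin-like conjugation system joins ATG8 proteins to the lipid of the growing membrane. The human ATG8 proteins fall into the LC3 branch, to which MAP1LC3A belongs, and the GABARAP branch, and both bind cargo receptors such as SQSTM1.

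The authors' deposited table gives 1 value per gene and group, in FPKM (fragments scaled by transcript length and by depth), with the libraries of a group already combined. It therefore has no spread between libraries, and every call below is the authors' own, made where their q-value was under 0.05. Many values stand in whole-number steps of what 1 fragment is worth. From these steps 1 FPKM stood for 1.32 times as many fragments in the treated group and 0.652 times as many in the recovery group as in the control. This scale holds depth and any normalization between libraries, which cannot be told apart here. A smallest number of fragments could be read back for 6 of the 9 genes. The 95% intervals made from these numbers cover counting error only, not the difference between cultures. Of 8 HEK 293T markers with an entry, the neurofilament gene NEFL stood at 22.2 FPKM in treated, 30.6 FPKM in recovery and 28.9 FPKM in control cells. KRT18 and VIM, which many other cell types also express, carried most of the sum of 629 FPKM in treated, 524 FPKM in recovery and 581 FPKM in control cells. PAX2, INA, LHX1 and EYA1 stood below 4 FPKM in every group, and IRS4 at 2.13 FPKM in treated and 28.0 FPKM in recovery cells and at a listed 0 in control cells, so the labelled line rests on few markers here. The 16 markers of blood, endothelium, fibroblasts and hepatocytes reached at most 2.42 FPKM in any group.

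MAP1LC3A, which encodes the LC3A protein that is lipidated onto autophagosomes, was the 1 gene of the set that the authors called. Its level was 16.8 FPKM in treated and 5.43 FPKM in recovery cells, and control cells were listed at 0. The treated value was the highest of the 3 and the recovery value lay between the other two. In RNA from a whole culture, more cells with the transcript and more transcript per cell cannot be told apart. In the authors' deposited table it was called higher in treated cells (q = 0.0147) and in recovery cells (q = 0.0392). The first of these is the lowest q in the table, shared by 113 entries, and in the recovery comparison 129 entries had a lower q. The entry spans positions 33134688 to 33148149 of chromosome 20 (hg19), 0.997 times the length of the annotated gene.

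The steps correspond to 94 fragments of MAP1LC3A in the treated group, 15 in the recovery group and 0 in the control group. A listed 0 need not be a count of 0: DDX3X, an RNA helicase that most cells use, had 170 FPKM in treated, 126 FPKM in recovery and a listed 0 in control cells. The authors' q for DDX3X was 1 in both comparisons. That of MAP1LC3A was under 0.05 in both, but the gene was selected on its response in these data. Its q-values therefore cannot show whether its listed 0 is a count of 0. Read as a count of 0, the control value of MAP1LC3A allows up to 3 fragments over the whole group, or 0.708 FPKM. Against that floor the value was 23.7 times as high in treated cells and 7.67 times as high in recovery cells. These ratios take the 94 and 15 fragments as they stand, without their own counting error, so they are not lower limits. The level in recovery cells was 0.323 times that in treated cells (interval 0.174 to 0.561, counting error only).

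Across the 9 genes, 1 was called higher, 0 were called lower and 8 were not called in treated cells. Over all entries with a q under 1, 1.08% were called higher and 0.275% lower in treated cells. The recovery comparison gave the same counts, 1 higher, 0 lower and 8 not called, beside 0.895% higher and 0.447% lower over all entries. MAP1LC3A accounts for the call in both, and since the set was put together around it these shares are not read against its count. Both comparisons use the same control libraries.

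**Figure D1:**
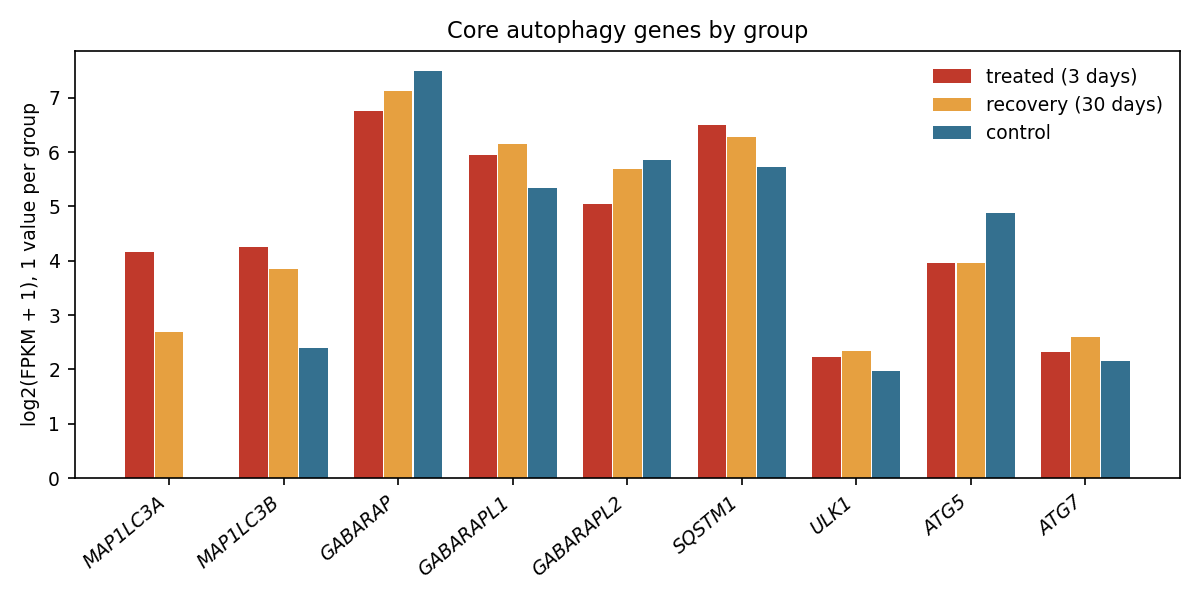
Level of the 9 core autophagy genes with an entry, as log2(FPKM + 1) on the vertical axis, 1 bar per group for treated, recovery and control cells. MAP1LC3A has no control bar because it is listed at 0; MAP1LC3B is lowest in control cells, at 4.26 FPKM, and ATG5 is highest there, at 28.3 FPKM.

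MAP1LC3B encodes LC3B, the form most used to mark autophagosomes. It stood at 18.2 FPKM in treated, 13.3 FPKM in recovery and 4.26 FPKM in control cells, the same order of groups as MAP1LC3A. The fragments read back were 271 in treated, 98 in recovery and 48 in control cells. The ratio to control was 4.27 in treated cells (counting interval 3.13 to 5.94) and 3.13 in recovery cells (2.19 to 4.52). The authors' q was 0.516 for treated and 0.787 for recovery cells, and neither comparison was called. In treated cells MAP1LC3A and MAP1LC3B stood at nearly the same level, and MAP1LC3A made up 48.0% of their sum, against 28.9% in recovery cells and 0 in control cells.

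The members of the GABARAP branch did not share one direction. GABARAP, which acts late in autophagosome closure and also in receptor trafficking, stood at 107 FPKM in treated, 139 FPKM in recovery and 179 FPKM in control cells. It was the most abundant gene of the set in every group. Its ratio to control was 0.597 in treated cells (interval 0.532 to 0.670) and 0.775 in recovery cells (0.678 to 0.884). GABARAPL2 stood at 32.0 FPKM in treated, 50.7 FPKM in recovery and 56.8 FPKM in control cells. Its ratio was 0.563 in treated cells (0.462 to 0.684) and 0.891 in recovery cells (0.720 to 1.10), where the interval includes 1. GABARAPL1, known in other cells as a target of FOXO transcription factors, stood at 60.6 FPKM in treated, 70.2 FPKM in recovery and 39.4 FPKM in control cells, with a ratio of 1.54 in treated cells (1.35 to 1.75) and 1.78 in recovery cells (1.54 to 2.06). None of the 3 was called in either comparison, and their q-values lay between 0.823 (GABARAPL1 in recovery cells) and 0.997 (GABARAPL2 in recovery cells).

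**Figure D2:**
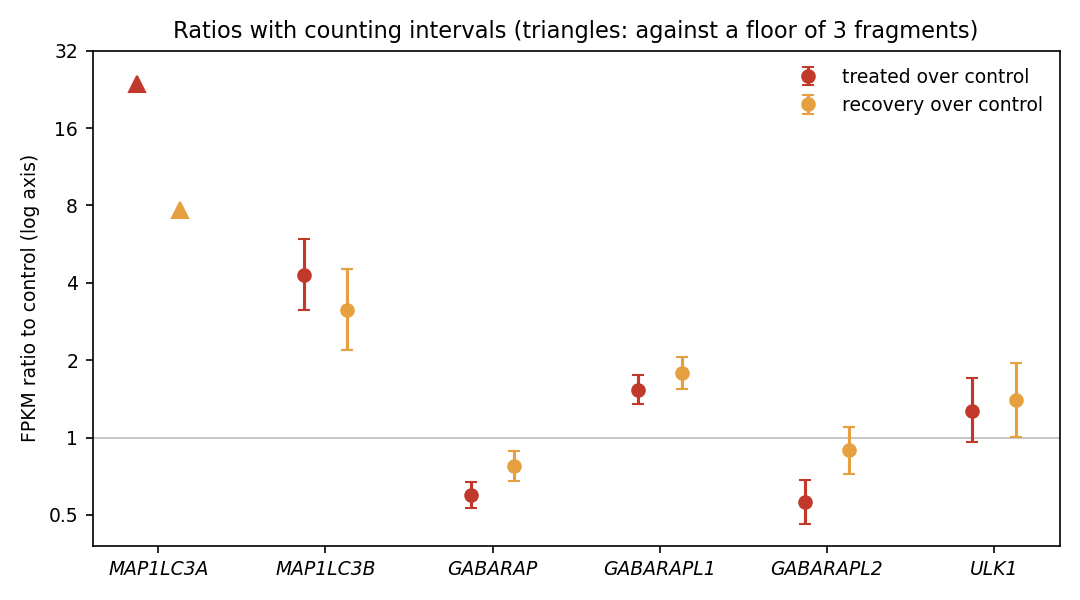
Ratio of FPKM to control on a log axis for the 6 genes whose fragments could be read back, treated and recovery cells side by side; bars are 95% counting intervals. Triangles for MAP1LC3A stand at 23.7 for treated and 7.67 for recovery cells, computed against a floor of 3 control fragments, while GABARAP and GABARAPL2 lie below 1.

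Added over its 8 genes, the ATG8 family summed to 236 FPKM in treated, 280 FPKM in recovery and 281 FPKM in control cells. The LC3 branch, a grouping made after the values had been seen, held 15.3% of that sum in treated, 7.31% in recovery and 2.18% in control cells. In FPKM this was 36.1 in treated, 20.5 in recovery and 6.13 in control cells. MAP1LC3A alone held 7.13% in treated and 1.94% in recovery cells. The GABARAP branch held the remaining 84.7% in treated, 92.7% in recovery and 97.8% in control cells. Scaled to a common sum without the 10 highest entries, the family summed to 265 FPKM in treated, 232 FPKM in recovery and 281 FPKM in control cells, so the order of the treated and recovery sums depends on the scaling. The percentages are shares within a group, so scaling a whole group would not move them. The other family members were scarce: MAP1LC3C stood at 0.848 FPKM in treated, 1.72 FPKM in recovery and 1.87 FPKM in control cells, on 3 fragments in treated, 3 in recovery and 5 in control cells. MAP1LC3B2 reached 0.222 FPKM in treated cells and GABARAPL3 0.337 FPKM in recovery cells, and each was listed at 0 in the other two groups. MAP1LC3B2 and GABARAPL3 are close copies of MAP1LC3B and GABARAPL1, so fragments may be divided between them.

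**Figure D3:**
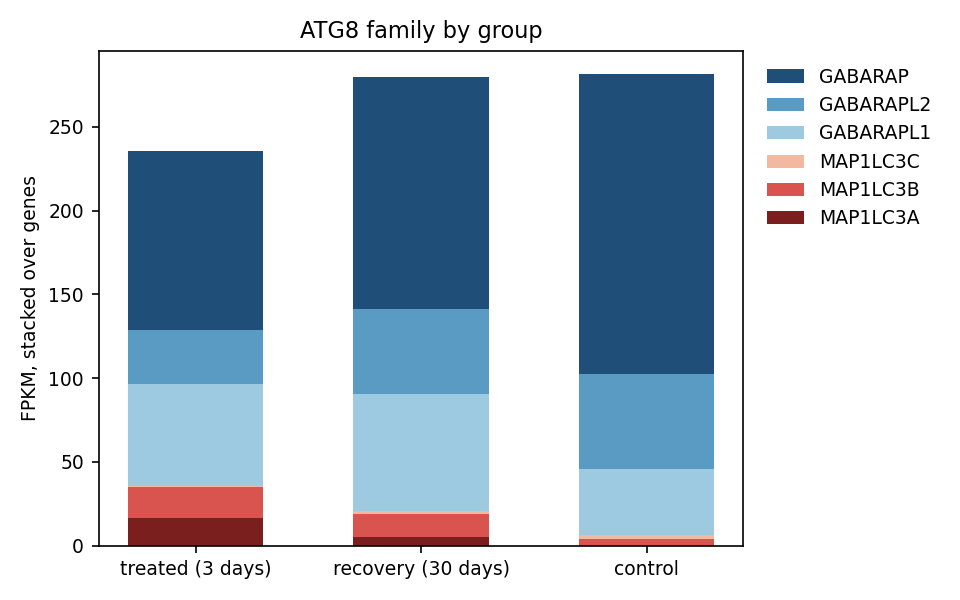
FPKM of the ATG8 family stacked by gene (vertical axis) in treated, recovery and control cells. The red LC3 segments make up 15.3% of the treated, 7.31% of the recovery and 2.18% of the control bar, and blue segments are the GABARAP branch; MAP1LC3B2 and GABARAPL3, at 0.222 FPKM in treated and 0.337 FPKM in recovery cells at most, are not drawn.

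SQSTM1, the p62 receptor that ties ubiquitinated cargo to LC3, stood at 89.1 FPKM in treated, 76.3 FPKM in recovery and 51.8 FPKM in control cells. Neither difference was called (q = 0.906 in treated and 0.939 in recovery cells). Its entry covers 1.93 times the length of the annotated gene, and the neighbouring genes MGAT4B and MRNIP have no entry of their own, so the value may hold fragments of those genes as well. ULK1, the kinase that starts autophagy, stood at 3.71 FPKM in treated, 4.07 FPKM in recovery and 2.91 FPKM in control cells. Its ratio was 1.27 in treated cells (interval 0.957 to 1.71) and 1.40 in recovery cells (1.00 to 1.95), and the first interval includes 1 while the second starts at it.

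ATG5, the partner that ATG12 is joined to, stood at 14.6 FPKM in treated, 14.5 FPKM in recovery and 28.3 FPKM in control cells, a ratio to control of 0.518 in treated and 0.512 in recovery cells, and was not called (q = 0.770 in treated and 0.774 in recovery cells). Control cells had the highest value, and the other two groups nearly the same. ATG7, the activating enzyme for ATG8 and ATG12 conjugation, stood at 4.02 FPKM in treated, 5.06 FPKM in recovery and 3.45 FPKM in control cells. The ATG7 entry spans 1.47 times the gene's length and its neighbour VGLL4 has no entry. BECN1, the scaffold of the lipid kinase complex, cannot be given a value. The entry of the adjacent gene CNTD1 spans 1.99 times the length of CNTD1 and stood at 1.71 FPKM in treated, 0.734 FPKM in recovery and 0.102 FPKM in control cells, but nothing in the table assigns it to BECN1.

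FPKM is a level per length, so the genes can be ordered within a group. In treated cells the order from the top was GABARAP, SQSTM1, GABARAPL1, GABARAPL2, MAP1LC3B, MAP1LC3A, ATG5, ATG7 and ULK1. In recovery cells ATG5 stood above MAP1LC3B and MAP1LC3A, at 14.5 FPKM against 13.3 FPKM and 5.43 FPKM. In control cells MAP1LC3A was last, and GABARAPL2 stood above SQSTM1. Neighbours in these orders, such as ATG7 and ULK1 in all 3 groups, have no spread between libraries to set their small differences against.

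The authors' deposited table also carries a mark headed "SOM DNA methylation", set to "Affected" for some entries. It is a label per entry and not a measured level of methylation. Among the 9 genes MAP1LC3A had it and the other 8 did not, and over all RefSeq entries 14.1% had it. Of 144 further autophagy pathway genes with an entry, described below, 14 had it, among them GABARAPL3. How the mark was made is not given in the sources used here. In mammals the methylated cytosines lie mostly in CpG pairs, so the CpG pairs of the promoters were counted. RefSeq promoter windows (GRCh38.p14, 250 bases before to 50 after a start) matched 9 of the 10 genes with 12 windows. MAP1LC3A was the gene without one. Of the 12 windows, 8 held more CpG pairs than the upper quartile of 28 over all 35116 windows, whose median was 14. SQSTM1 supplied 3 of these 8, so they are not 8 separate genes. The windows of 3 ATG8 genes are shown because their values differ in direction: the treated to control ratio was 4.27 for MAP1LC3B, 0.597 for GABARAP and 1.54 for GABARAPL1, none of them called. CpG pairs are in capitals.
MAP1LC3B, chr16:87392086-87392385, plus strand: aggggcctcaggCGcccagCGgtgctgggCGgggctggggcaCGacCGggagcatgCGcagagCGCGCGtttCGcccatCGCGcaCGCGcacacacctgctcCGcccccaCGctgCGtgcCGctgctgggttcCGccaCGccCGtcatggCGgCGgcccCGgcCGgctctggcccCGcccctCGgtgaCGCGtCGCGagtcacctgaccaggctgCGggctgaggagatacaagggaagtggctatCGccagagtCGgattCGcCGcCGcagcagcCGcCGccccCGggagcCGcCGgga
GABARAP, chr17:7242400-7242699, minus strand: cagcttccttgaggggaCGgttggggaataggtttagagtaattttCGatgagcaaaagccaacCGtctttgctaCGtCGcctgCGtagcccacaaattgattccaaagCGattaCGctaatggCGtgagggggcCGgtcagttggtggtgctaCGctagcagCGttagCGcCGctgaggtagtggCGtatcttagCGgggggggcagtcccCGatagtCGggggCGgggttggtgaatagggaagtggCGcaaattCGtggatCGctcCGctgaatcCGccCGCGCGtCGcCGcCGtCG
GABARAPL1, chr12:10212627-10212926, plus strand: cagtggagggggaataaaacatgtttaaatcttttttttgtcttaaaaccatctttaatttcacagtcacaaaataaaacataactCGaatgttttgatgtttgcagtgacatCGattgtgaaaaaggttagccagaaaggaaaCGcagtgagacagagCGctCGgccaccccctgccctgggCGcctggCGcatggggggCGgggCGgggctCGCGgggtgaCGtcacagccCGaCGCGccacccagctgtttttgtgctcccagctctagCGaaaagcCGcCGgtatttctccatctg

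The MAP1LC3B window held 42 CpG pairs, a number that 5.85% of all windows reach or pass. The GABARAP window held 31 and that of GABARAPL1 held 18, against 33 in GABARAPL2. None of the 3 windows shown belongs to an entry with the methylation mark. Short motifs were searched on both strands of the 12 windows, namely the E-box CACGTG, the antioxidant response core TGACNNNGC, the amino acid response core TGATGNAA and the forkhead core GTAAACA. A match to TGACNNNGC was present in the MAP1LC3B window and in no other window of the set, and 13.3% of all windows hold one. The other motifs had 0 matches in the 12 windows, and 7.26%, 3.62% and 3.42% of all windows hold them, in the order listed.

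The entries around MAP1LC3A did not share its pattern of values. PIGU, a subunit of the enzyme that attaches proteins to their membrane anchors, lies 197 bases away and stood at 9.36 FPKM in treated, 10.6 FPKM in recovery and 16.9 FPKM in control cells. ITCH, a ubiquitin ligase, lies 35490 bases away on the other side and stood at 26.4 FPKM in treated, 22.6 FPKM in recovery and 28.6 FPKM in control cells. Between ITCH and MAP1LC3A, 5926 bases from MAP1LC3A, an entry that matched no symbol stood at 213 FPKM in treated, 168 FPKM in recovery and 197 FPKM in control cells. None of these 3 entries was called or carried the methylation mark.

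**Figure D4:**
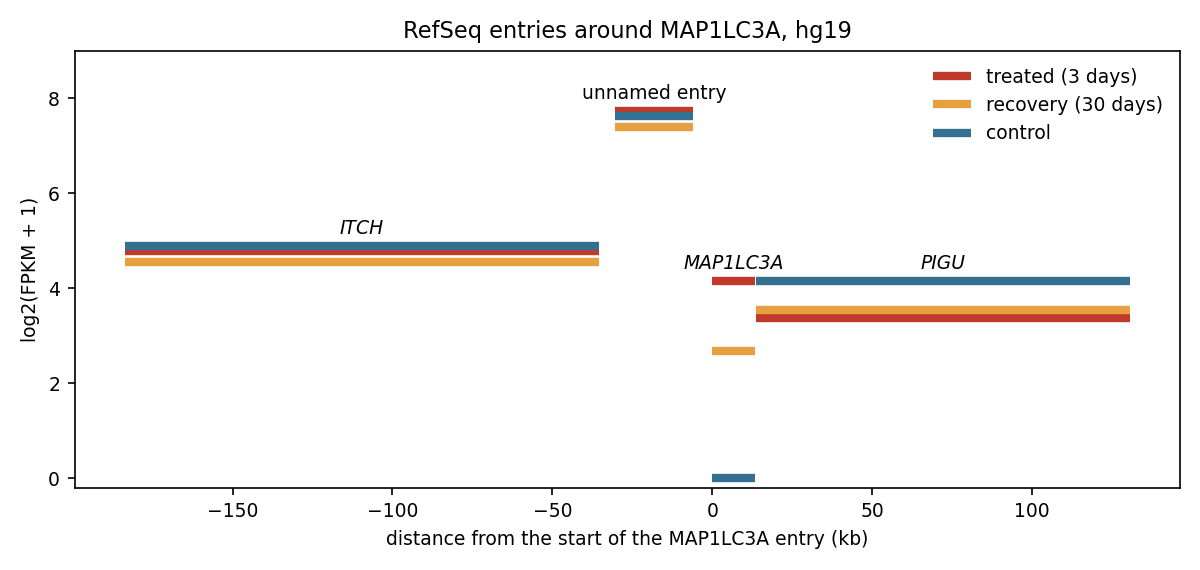
Entries within 100 kb of MAP1LC3A, drawn by distance from its start (horizontal, kb) and by log2(FPKM + 1) (vertical), with a line each for treated, recovery and control cells. The 3 lines of MAP1LC3A lie far apart, from 16.8 FPKM in treated cells to a listed 0 in control cells, while those of ITCH, at 26.4 FPKM in treated, 22.6 FPKM in recovery and 28.6 FPKM in control cells, lie close together.

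No lncRNA locus of the authors' deposited table lies within 100 kb of MAP1LC3A. Around the other genes there were 13 such loci near 7 genes, of which 6 were above 0 in some group, beside 30.8% of all 10010 loci. Of these 13, 3 had a q under 1 in treated and 3 in recovery cells and 0 were called, beside 11.3% of all loci with a q under 1 in treated and 14.9% in recovery cells, which leaves too few to read anything from. The nearest of those expressed lies 2.69 kb from GABARAPL2 and stood at 4.56 FPKM in treated, 5.31 FPKM in recovery and 0.694 FPKM in control cells. A locus 74.2 kb from MAP1LC3B stood at 43.8 FPKM in treated, 263 FPKM in recovery and 223 FPKM in control cells (q = 0.580 in treated cells in the authors' deposited table), with its lowest value in treated cells, where MAP1LC3B had its highest. A locus 17.4 kb from GABARAPL1 stood at 525 FPKM in control cells and was listed at 0 in the other two groups (q = 0.147 in both). The locus nearest to ATG5, at 3.19 kb, stood at 7.58 FPKM in treated cells and was listed at 0 in the other two, and the one near GABARAP, at 94.0 kb, stood at 1.00 FPKM in recovery cells and was likewise listed at 0 elsewhere. The loci nearest to ULK1 and ATG7 were listed at 0 in all groups.

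By the distance between their 3 values on the log2(FPKM + 1) scale, the 5 entries most like MAP1LC3A were PAGE2, CTCFL, TMEM132D-AS1, C19orf33 and MT1A. PAGE2, a cancer-testis antigen, stood at 14.6 FPKM in treated and 5.08 FPKM in recovery cells and was listed at 0 in control cells. CTCFL, the testis paralogue of the insulator protein CTCF, stood at 16.7 FPKM in treated, 6.30 FPKM in recovery and 0.242 FPKM in control cells. MT1A, a metallothionein, stood at 23.0 FPKM in treated and 4.36 FPKM in recovery cells, was listed at 0 in control cells and carried the methylation mark. C19orf33 stood at 23.4 FPKM in treated and 6.04 FPKM in recovery cells, and TMEM132D-AS1 at 20.3 FPKM in treated cells on 6 fragments and 6.86 FPKM in recovery cells on 1 fragment. Both were listed at 0 in control cells. Among the 5, TMEM132D-AS1 was called higher in treated cells and none was called in recovery cells. Likeness here rests on 3 group values. More widely, 33 entries were listed at 0 in control cells with a treated value within 2-fold of that of MAP1LC3A. Of these 33, picked on the same values, 19 were called higher in treated cells and 28 were above 0 in recovery cells. The methylation mark stood on 5 of the 33, or 15.2%, near the 14.1% over all entries.

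Around the 10 genes, 11 lists covered the pathway with 168 further genes, of which 144 have an entry of their own. In treated cells 0 of these were called higher and 1 lower, and in recovery cells 0 were called in either direction. With 137 of them at a q under 1 in treated and 139 in recovery cells, these counts are near the shares over all entries, 1.08% higher and 0.275% lower in treated and 0.895% higher and 0.447% lower in recovery cells. The median log2 change over the 141 with a mean of 0.5 FPKM or more was -0.05 in treated cells and 0.00 in recovery cells, beside 0.01 in treated and 0.00 in recovery cells over all 12712 such entries. The values below are as deposited. Scaling to a common sum without the 10 highest entries, chosen for the lists after seeing the data, moved the median of all entries to 0.17 in treated and -0.23 in recovery cells and that of the 141 genes to 0.11 in treated and -0.25 in recovery cells. It turned the sign of the medians of the lipid kinase, conjugation and fusion lists in treated cells and of the conjugation, lysosome and signalling lists in recovery cells. With the core genes counted in, it also turned those of the ATG8 family and the cargo receptors in treated cells. The called gene was DDIT4, an inhibitor of mTORC1 that stress induces. It fell to 19.7 FPKM in treated cells, against 154 FPKM in control cells (q = 0.0147), and stood at 142 FPKM in recovery cells, which was not called (q = 0.998).

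In the initiation complex, 5 further genes had medians of 0.11 in treated and 0.30 in recovery cells. ATG101, which holds the ULK1 complex together, stood at 22.4 FPKM in treated, 23.7 FPKM in recovery and 10.3 FPKM in control cells. ULK3, a related kinase, stood at 13.9 FPKM in treated, 25.2 FPKM in recovery and 20.3 FPKM in control cells, and the scaffold ATG13 at 25.3 FPKM in treated, 21.4 FPKM in recovery and 29.9 FPKM in control cells. None of these 3 was called. In the lipid kinase complexes, 6 genes with an entry had medians of -0.01 in treated and -0.19 in recovery cells. PIK3C3, their catalytic subunit, stood at 7.43 FPKM in treated, 11.7 FPKM in recovery and 14.4 FPKM in control cells. PIK3R4, its regulatory subunit, stood at 19.5 FPKM in treated, 15.4 FPKM in recovery and 22.1 FPKM in control cells. BCL2, which binds BECN1, stood at 1.53 FPKM in treated, 6.49 FPKM in recovery and 0.441 FPKM in control cells, and was not called (q = 0.559 in recovery cells).

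The ATG9 and lipid transfer genes had medians of 0.37 in treated and 0.36 in recovery cells, with 7 of 9 above 0 in each. After the common-sum scaling these were 8 of 9 in treated and 5 of 9 in recovery cells. Over all 12712 entries, 6473 in treated and 6316 in recovery cells lay above 0 as deposited. After that scaling these were 7611 in treated and 4524 in recovery cells. ATG9A, the lipid scramblase of the forming membrane, stood at 17.4 FPKM in treated, 12.0 FPKM in recovery and 8.0 FPKM in control cells, and ATG2A, which transfers lipid to it, at 10.1 FPKM in treated, 4.83 FPKM in recovery and 5.46 FPKM in control cells. Of these 2, ATG2A carried the methylation mark. ZFYVE1, whose protein marks the membrane site where autophagosomes form, stood at 2.67 FPKM in treated, 2.34 FPKM in recovery and 4.92 FPKM in control cells, and WDR45, a lipid-binding propeller protein, at 26.8 FPKM in treated, 38.5 FPKM in recovery and 21.8 FPKM in control cells. The conjugation machinery beyond ATG5 and ATG7 had medians of -0.02 in treated and 0.26 in recovery cells. ATG4C, a protease that trims ATG8 proteins, stood at 10.2 FPKM in treated, 11.4 FPKM in recovery and 21.7 FPKM in control cells, so that, as for ATG5, control cells had the highest value. ATG4D, a related protease whose entry spans 2.33 times its gene, stood at 12.5 FPKM in treated, 19.8 FPKM in recovery and 19.7 FPKM in control cells. TECPR1, which binds the ATG12 and ATG5 conjugate and carried the methylation mark, stood at 2.78 FPKM in treated, 4.76 FPKM in recovery and 2.40 FPKM in control cells.

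The cargo receptors other than SQSTM1 had medians of -0.17 in treated and -0.13 in recovery cells. Below 0 lay 13 of 19 in treated and 14 of 19 in recovery cells. After the common-sum scaling these were 10 of 19 in treated and 15 of 19 in recovery cells. Over all 12712 entries, 48.6% in treated and 49.2% in recovery cells lay below 0 as deposited. After that scaling the shares were 39.6% in treated and 63.3% in recovery cells. OPTN, a receptor for damaged mitochondria and bacteria, stood at 8.87 FPKM in treated, 10.5 FPKM in recovery and 19.1 FPKM in control cells, with a counting interval of the treated ratio of 0.387 to 0.554. TOLLIP, a receptor for protein aggregates, stood at 5.47 FPKM in treated, 8.70 FPKM in recovery and 3.75 FPKM in control cells, and carried the methylation mark. BCL2L13 and SEC62 lay below control in both groups, as OPTN did. BCL2L13, a mitophagy receptor, stood at 12.1 FPKM in treated, 21.4 FPKM in recovery and 24.7 FPKM in control cells. SEC62, a receptor for endoplasmic reticulum, stood at 15.0 FPKM in treated, 14.3 FPKM in recovery and 26.5 FPKM in control cells. None of the 4 was called. The fusion genes had medians of -0.07 in treated and -0.02 in recovery cells. VPS18, a subunit of tethering complexes at the lysosome, stood at 12.1 FPKM in treated, 4.99 FPKM in recovery and 6.01 FPKM in control cells. Its partner VPS11 stood at 7.70 FPKM in treated, 7.61 FPKM in recovery and 11.5 FPKM in control cells. RAB7A, the GTPase of late endosomes, stood at 33.4 FPKM in treated, 18.0 FPKM in recovery and 20.4 FPKM in control cells, and BORCS5, part of a complex that positions lysosomes, at 3.49 FPKM in treated, 2.41 FPKM in recovery and 3.73 FPKM in control cells.

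Among 26 lysosome genes with an entry, the medians were 0.09 in treated and 0.19 in recovery cells. NPC2, which carries cholesterol out of the lysosome, had the highest log2 change in treated cells of the 141 further genes. It stood at 693 FPKM in treated, 106 FPKM in recovery and 44.7 FPKM in control cells, a ratio of 15.5 in treated cells that was not called (q = 0.926). ATP6AP1, an accessory subunit of the proton pump, stood at 70.3 FPKM in treated, 54.5 FPKM in recovery and 26.8 FPKM in control cells. Its ratio was 2.62 in treated cells (interval 2.29 to 3.01), with a q of 0.194. GUSB, a lysosomal glucuronidase, stood at 11.3 FPKM in treated, 17.6 FPKM in recovery and 6.92 FPKM in control cells.

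The transcription factor list had medians of 0.52 in treated and 0.36 in recovery cells over 11 genes. TFEB, a master regulator of lysosome genes, stood at 1.72 FPKM in treated and 1.58 FPKM in recovery cells on 11 fragments in treated and 5 in recovery cells, and was listed at 0 in control cells (q = 1 in both). FOXO4 stood at 11.9 FPKM in treated, 20.8 FPKM in recovery and 6.52 FPKM in control cells. ATF4, which switches on amino acid response genes, stood at 217 FPKM in treated, 401 FPKM in recovery and 492 FPKM in control cells (q = 0.253 in treated cells). In mTORC1 and AMPK signalling the medians were -0.19 in treated and 0.01 in recovery cells, and 20 of 28 genes in treated and 14 of 28 in recovery cells lay below 0. After the common-sum scaling these were 17 of 28 in treated and 20 of 28 in recovery cells, so which comparison has more genes below control depends on the scaling. Over all entries the shares below 0 were 48.6% in treated and 49.2% in recovery cells as deposited. After that scaling they were 39.6% in treated and 63.3% in recovery cells. The list mixes inhibitors of mTORC1, such as DDIT4, with genes that bring it to the lysosome, such as RRAGD. Its median and its counts therefore give no direction of signalling. SESN2, a leucine sensor of the mTORC1 pathway, stood at 16.9 FPKM in treated, 44.7 FPKM in recovery and 19.5 FPKM in control cells. RRAGD, a GTPase that brings mTORC1 to the lysosome, stood at 4.18 FPKM in treated, 9.19 FPKM in recovery and 10.7 FPKM in control cells. LAMTOR2, a subunit of the complex that anchors RRAGD, stood at 46.4 FPKM in treated, 58.2 FPKM in recovery and 27.5 FPKM in control cells. The LAMTOR2 entry spans 40.4 times the gene and may hold other genes.

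MAP1LC3A was first known as a light chain of microtubule-associated proteins, and 9 genes of the MAP1 family and its tubulin partners had medians of 0.21 in treated and -0.09 in recovery cells. MAP1S, which binds LC3, stood at 4.92 FPKM in treated, 5.54 FPKM in recovery and 2.11 FPKM in control cells, with a ratio of 2.34 in treated cells (interval 1.58 to 3.52) and 2.63 in recovery cells (1.70 to 4.11). MAP2, a microtubule protein of neurons, stood at 1.05 FPKM in treated, 1.24 FPKM in recovery and 4.01 FPKM in control cells. Neither gene was called. MAP1A, a heavy chain gene, has no entry of its own.

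**Figure D5:**
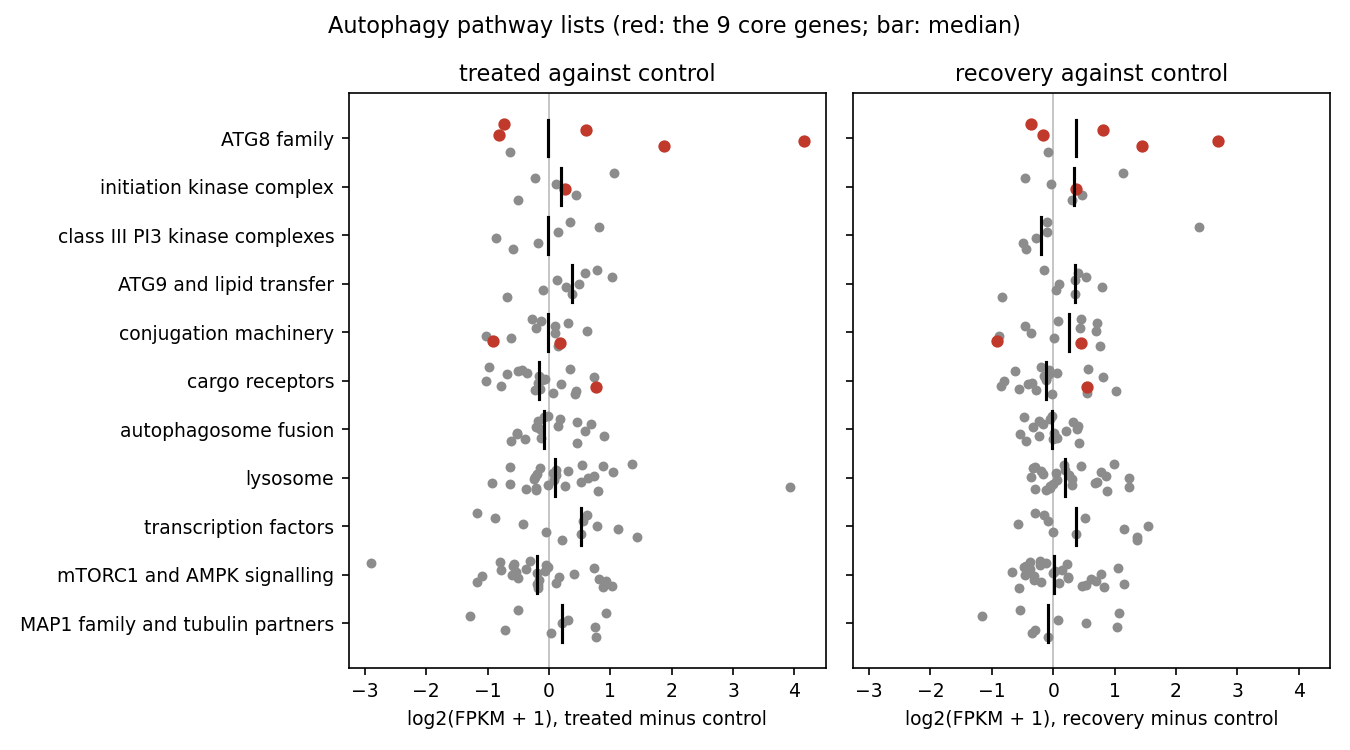
Difference in log2(FPKM + 1) from control (horizontal axis) for each pathway list, treated against control on the left and recovery against control on the right; each point is a gene with a mean of 0.5 FPKM or more, red points are the 9 core genes and black bars are list medians. MAP1LC3A stands at 4.15 for treated and 2.68 for recovery cells at the top right of the 2 panels; for treated cells NPC2 stands at 3.93 in the lysosome row and DDIT4 at -2.91 in the signalling row.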

How the data were processed

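RNA of HEK 293T cells was depleted of ribosomal RNA and made into directional libraries, per the labels' protocols. Cells were grown in triplicate, but nothing says which culture a library came from. The authors deposited FPKM values, 1 per entry and group, per the file headers. The submitters' processing notes name Cuffdiff and Cufflinks without versions, and the builds hg19 and mm9; these human coordinates are taken as hg19 and printed 1-based. For the aligner and annotation, the sources used here give no name. The authors also deposited q-values (p-values adjusted over the table) against control and a call where q was under 0.05. In the deposited lncRNA table the treated q column was checked as a score, because 1 malformed entry holds another number there; in the entries kept, q is at most 1.

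Left out were 1 malformed RefSeq entry of 20221 and 2 of 21627 lncRNA entries. Of 20220 RefSeq entries, 19665 matched a symbol in the RefSeq gene table (GRCh38.p14). The number of value columns not matched to a group was 0. The authors' p-values and calls were used as deposited, and no test was made, since each group has 1 value.

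Changes are on the log2(FPKM + 1) scale, and list medians use entries with a mean of 0.5 FPKM or more. Fragments are the smallest whole numbers that give the values of all groups within a relative tolerance of 6e-06 or 0.0001 fragments, where a match had a chance of at most 5%; a common multiple would give the same values and narrower intervals. They were found for 52.8% of entries above 0 in all groups. Intervals are exact (Clopper-Pearson) at 95%. Scripts were tested on simulated data and used Python 3.11.15, pandas 2.3.3, numpy 2.4.6 and scipy 1.17.1.

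The genes, lists and tests were chosen with earlier results of these data known. The named pathway genes are, per list and comparison, the 2 with the highest absolute log2 change plus any called; DDX3X and CNTD1 were chosen after their values were seen. Other q thresholds, pseudocounts, filters and scalings were tried.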

Additional observations from a re-analysis of the deposited data

How the results depend on the processing

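At a q under 0.10 the calls among the core genes and the pathway lists kept their numbers in both comparisons. At a q under 0.01 they were 0 among the core genes in treated and in recovery cells and 0 for the lower call of the pathway lists in treated cells, because the lowest q in the table is 0.0147. Scaling to a common sum without the 10 highest entries moved the median log2 change of all entries to 0.17 in treated and -0.23 in recovery cells. The sign of all 72 log2 changes of the 9 core genes recomputed with other pseudocounts and scalings stayed the same. Of 110 recomputed list medians, 10 changed sign, 8 of them under the common-sum scaling, which was added for the lists after seeing the data. The 8 had medians between -0.16 (cargo receptors in treated cells) and 0.26 (conjugation machinery in recovery cells) as deposited. The other two were the ATG8 family in treated cells, at -0.01 with the filter and 0.14 without it, and mTORC1 and AMPK signalling in recovery cells, at 0.01 and, scaled to a common median, -0.02. The log2 change of MAP1LC3A in treated cells was 4.15 with a pseudocount of 1 and 7.40 with 0.1, so its size rests on the pseudocount. Leaving out GABARAPL3 gave MAP1LC3A a share of 1.94% in recovery cells as before. With a pseudocount of 0.1, 4 of the 5 entries most like MAP1LC3A remained.

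No paired analysis was possible because only 1 value per group was used, although the labels of the treated and control libraries carry the letters A and B; leaving out each library was not run, for the same reason. Treated and control values each combine 2 libraries, and the recovery group is 1 library, so no difference here has a replicate check of its own.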
